A study of Caenorhabditis elegans with 12 samples.

Results

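GATA factors are zinc finger proteins that bind the DNA motif after which they are named, and in Caenorhabditis elegans a chain of them turns a single early blastomere into the intestine while others make the epidermis. The 10 genes described here were taken by their WormBase symbols from the 25122 genes of the deposited table and fall into 4 early factors (med-1, med-2, end-1 and end-3) and 6 later ones (elt-1, elt-2, elt-3, egl-18, elt-6 and elt-7). Of the 10, 9 were found under the symbols asked for. The tenth, elt-5, is an older name of egl-18 (background knowledge, as the gene name tables list only egl-18), and its row was taken under that symbol.

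In the embryo the order of action is known from genetics. Maternal SKN-1 activates med-1 and med-2 in the mother cell of endoderm and mesoderm, the MED proteins together with a Wnt signal switch on end-1 and end-3 in the endoderm founder cell, and the END proteins start elt-7 and elt-2, which then hold the intestinal programme for life. The med and end genes are transcribed for a short time in the early embryo only. On the epidermal side elt-1 specifies the epidermal cells, elt-3 acts below it in the embryonic epidermis, and egl-18 and elt-6 act mainly in the seam cells, the lateral epidermal stem cells.

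RNA was sequenced from eggs of 3 genotypes with 4 libraries each. All of them carried e1370, a reduced-function allele of the insulin/IGF receptor gene daf-2. The genotype daf-16;daf-2;bcl-11 carried in addition mu86, a deletion allele of the FOXO factor gene daf-16, and bon125, a hypomorphic frameshift allele of bcl-11, the counterpart of mammalian BCL11A/B. The genotype daf-2;bcl-11 carried bon125 and, by its label, an intact daf-16, and the genotype daf-2 carried neither. Eggs were released by bleaching from adults grown at 20°C on OP50-1 bacteria, which yields embryos of mixed stage, and were kept at 27°C for 2 h before RNA was taken. Each genotype is a single strain, and eggs with an intact daf-2 gene, or kept at the lower temperature only, were not analysed here. The first genotype is called the triple mutants below, and the 4 libraries of the second one are called the libraries labelled double mutant. A strain that lacks daf-16 with bcl-11 intact is not among them. The labels number the replicates 1 to 4, and libraries of the same number are called a batch here. Nothing says that the replicates came from separate cultures, so p-values measure the spread between these libraries only.

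The deposited values are regularized-log (rlog) values, which are normalized counts on a log2 scale with rare transcripts pulled towards their mean, so changes of the scarce med genes are understated. A gene was called changed at an adjusted p-value below 0.05 (limma with Benjamini-Hochberg adjustment over all 25122 genes) together with a fold change above 1.5. Read depth cannot be recovered from rlog values. Transcript levels come from whole eggs, in which fewer cells of a type and less RNA per cell cannot be told apart.

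Several facts about the libraries have to stand before the results. daf-16 itself was at 9.72 ± 0.14 (SD, n = 4) in the triple mutants, 9.52 ± 0.06 (SD, n = 4) in the libraries labelled double mutant and 12.12 ± 0.15 (SD, n = 4) in daf-2. Between the mutants these levels differed by 0.20 (adjusted p = 0.793). By its label the middle group has an intact daf-16 gene, yet its transcript was as low as in the deletion mutants. The group is therefore named by its label throughout, and every direction given for it rests on that label. Replicate 4 of the triple mutants stood apart from the other 3 libraries of its genotype. This held in the early factors and in the gene lists that mark young embryos. The changes of the GATA factors in this genotype against daf-2 are therefore also given without replicate 4. Medians and calls of gene lists include it. bcl-11 averaged 9.10 ± 0.72 in the triple mutants, 9.28 ± 0.18 in the libraries labelled double mutant and 10.15 ± 0.37 in daf-2 (SD, n = 4 each). Library medians were between 5.77 and 5.95 in the triple mutants, between 5.92 and 6.01 in the libraries labelled double mutant and between 6.36 and 6.50 in daf-2, so that centring each library on its median adds 0.54 to every change of the triple mutants against daf-2 and 0.43 to every change of the libraries labelled double mutant against daf-2.

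All 4 early factors had higher means in the libraries labelled double mutant than in daf-2, and 3 of them passed the test: med-2, end-1 and med-1 rose by 1.25, 1.17 and 0.83 on the log2 scale, and end-3, with a change of 1.13, did not pass, although it did under 3 of the alternatives. Among all genes 22% were called in this comparison and 7% were called higher, against 3 of the 10 GATA factors. None of the 6 later factors was called, although elt-1 and elt-7 passed the adjusted p-value (0.00122 and 0.00427) and missed only the fold change threshold, with changes of 0.56 and 0.50 against 0.585. In the comparison of the triple mutants with daf-2, where 22.5% of all genes were called and 6.38% were called higher, end-1 was the only early factor called, and elt-1 and elt-7 were called among the later ones, all higher. Both mutant groups are compared with the same 4 daf-2 libraries.

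end-1 (WBGene00001310, chromosome V of WBcel235, 13985128 to 13987074, 4 exons) encodes the endoderm-determining GATA factor of the founder cell of the intestine. It was at 11.53, 11.51, 11.21 and 12.63 in replicates 1 to 4 of the triple mutants, at 12.15, 12.16, 11.92 and 11.91 in those of the libraries labelled double mutant, and at 11.02, 10.49, 10.71 and 11.25 in those of daf-2. All 4 libraries labelled double mutant lay above all 4 of daf-2, and the triple mutant libraries overlapped both groups, with replicate 4 above every other library. The log2 fold change of the libraries labelled double mutant against daf-2 was 1.17 (SE 0.25, adjusted p = 0.00319), a 2.25-fold higher level, and each of the 4 batches gave a higher value. A two-sided exact permutation of the libraries gave p = 0.0286, which is as low as 4 against 4 can go. This p-value and the count of batches both follow from the lack of overlap and add nothing to it. The call of end-1 in this comparison held in all 20 alternatives run. In the triple mutants against daf-2 the log2 fold change of end-1 was 0.85 (SE 0.25, adjusted p = 0.0178). The libraries overlapped, and the exact permutation p was 0.0571. Paired by replicate number, the values were higher in 4 of 4 batches, by 0.51, 1.01, 0.51 and 1.38. Without replicate 4 of the triple mutants the change was 0.55 (adjusted p = 0.0245), under the fold change threshold and so not called. With only the 8 libraries of these 2 genotypes in the model, which leaves out the libraries of doubtful label, the call was lost as well, with a log2 fold change of 0.85 and an adjusted p of 0.0675. Without replicate 2 of daf-2 the change was 0.73 (adjusted p = 0.0605), also not called.

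end-3 (WBGene00001311, chromosome V, 14014695 to 14015980) lies 27620 bp beyond end-1 on the same strand and acts with it. Its values in replicates 1 to 4 were 6.53, 7.08, 6.28 and 8.77 in the triple mutants, 8.62, 8.37, 8.17 and 8.48 in the libraries labelled double mutant, and 8.35, 6.36, 6.37 and 8.04 in daf-2. The daf-2 libraries split into a high pair, replicates 1 and 4, and a low pair, replicates 2 and 3, while the libraries labelled double mutant were all high and the triple mutants were high in replicate 4 alone. The standard deviation was 1.12 in the triple mutants, 0.19 in the libraries labelled double mutant and 1.06 in daf-2 (n = 4 each). The log2 fold change of the libraries labelled double mutant against daf-2 was 1.13 (SE 0.52, adjusted p = 0.121). The libraries of these groups overlapped, and the exact permutation p was 0.0571. Paired by replicate number the differences were 0.27, 2.00, 1.80 and 0.44, all positive, but this pairing rests on the number alone. With replicate 4 of the triple mutants left out of the model, which pools the spread of all genotypes, the same change had an adjusted p of 0.0442 and was called. It was also called after quantile normalization (1.51, adjusted p = 0.0398) and after centring by library medians (1.56, adjusted p = 0.00986). For the triple mutants against daf-2 the value was -0.12 (SE 0.52, adjusted p = 0.896), and -0.65 without replicate 4. The 3′ end of end-3 overlaps srh-308 on the opposite strand by a few bases.

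med-1 (WBGene00003180, chromosome X, 12430609 to 12431133) and med-2 (WBGene00003181, chromosome III, 6884503 to 6885027) are near-identical single-exon genes of 525 bp each, so reads can be split between them and their separate values are uncertain. med-1 was at 4.22, 4.34, 3.90 and 5.27 in replicates 1 to 4 of the triple mutants, at 5.51, 5.35, 5.33 and 4.85 in the libraries labelled double mutant, and at 4.16, 4.41, 4.49 and 4.68 in daf-2. med-2 was at 4.38, 4.22, 4.24 and 5.85 in the triple mutants, at 6.21, 5.79, 5.45 and 5.60 in the libraries labelled double mutant, and at 4.70, 3.96, 4.11 and 5.26 in daf-2. For both genes every library labelled daf-2;bcl-11 lay above every daf-2 library, and replicate 4 was the only triple mutant library that reached their range. Against daf-2 the libraries labelled double mutant were higher by 0.83 for med-1 (SE 0.26, adjusted p = 0.0254) and by 1.25 for med-2 (SE 0.36, adjusted p = 0.0176), which is 1.77-fold and 2.38-fold. With the 2 genes summed into 1 on the linear scale (chosen after the values were seen), the increase was 1.05 (SE 0.30, adjusted p = 0.0173). The call of med-1 was lost without replicate 1 or 2 of daf-2 and without replicate 1, 2 or 3 of the libraries labelled double mutant, with a highest adjusted p of 0.0784. That of med-2 was lost without replicate 2 or 3 of daf-2 and without replicate 1 of the libraries labelled double mutant, with a highest adjusted p of 0.0619. In the triple mutants against daf-2 the changes were -0.0019 for med-1 (95% confidence interval -0.55 to 0.55) and 0.17 for med-2 (-0.61 to 0.94). Without replicate 4 of the triple mutants they were -0.28 for med-1 (adjusted p = 0.332) and -0.23 for med-2 (adjusted p = 0.595), so the sign of med-2 rests on that library.

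**Figure D1:**
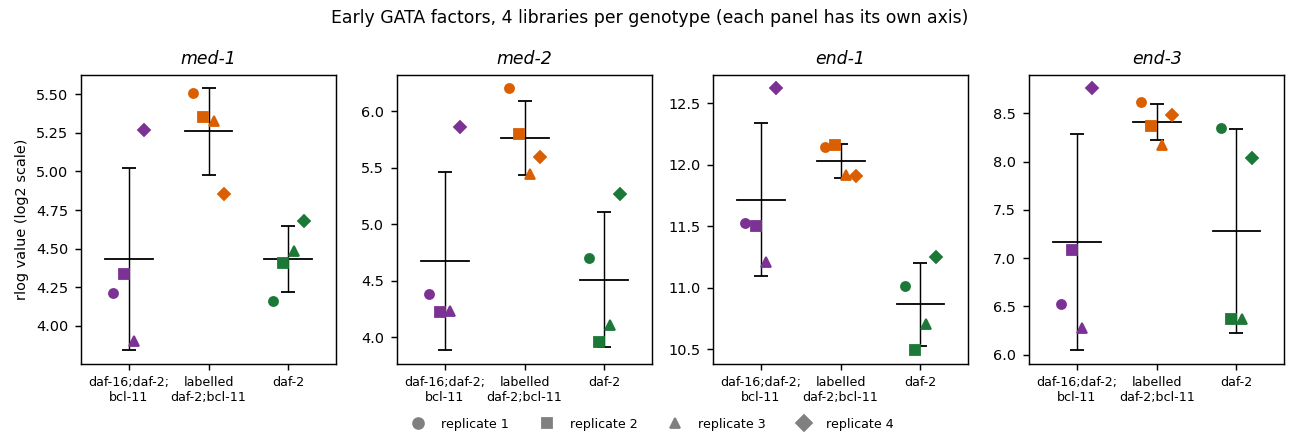
rlog values (log2 scale) of the 4 early GATA factors in each library, with groups from left to right triple mutants (daf-16;daf-2;bcl-11), libraries labelled double mutant (daf-2;bcl-11) and daf-2, symbols for replicates, and black lines for the mean and SD (n = 4). Replicate 4 of the triple mutants is the highest of its group for all 4 genes, for example 8.77 for end-3 against 6.28 to 7.08 in the other 3, and the libraries labelled double mutant lie together at the upper end.

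Between the mutants, the triple mutants were below the libraries labelled double mutant for each early factor in batches 1, 2 and 3 and above them for each in batch 4. The log2 fold changes were -0.83 for med-1, -1.09 for med-2, -0.32 for end-1 and -1.25 for end-3, and none was called, with adjusted p-values of 0.787, 0.787, 0.806 and 0.787 (limma). Only 0.0119% of all genes, 3 in number, were called in this comparison. The unadjusted limma p-values were 0.00609 for med-1, 0.00947 for med-2, 0.229 for end-1 and 0.0307 for end-3, so that 3 were below 0.05 before adjustment. Among all 25122 genes 1514 had an unadjusted p-value below 0.05 in this comparison. The exact permutation p-values for the 4 genes were 0.0571, 0.114, 0.457 and 0.143. Without replicate 4 of the triple mutants the changes were -1.11 for med-1 and -1.48 for med-2, both called, with adjusted p-values of 0.0224 and 0.0275, and -0.62 for end-1 and -1.78 for end-3, which were not (adjusted p = 0.0844 and 0.0601). The number of genes called among all 25122 was 357 in that fit. Replicate 4 was singled out for its high values in the early factors, so the adjusted p-values without it are no independent test of them.

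The later factors of the intestine are elt-7 and elt-2. elt-7 (WBGene00015981, chromosome V, 4770670 to 4773086) encodes a factor that acts in parallel with ELT-2 when the intestine differentiates. Its values in replicates 1 to 4 were 13.15, 13.14, 12.95 and 13.29 in the triple mutants, 12.95, 13.05, 12.84 and 12.98 in the libraries labelled double mutant, and 12.33, 12.36, 12.47 and 12.66 in daf-2. Both mutant groups lay wholly above daf-2. The increase over daf-2 was 0.68 in the triple mutants (SE 0.11, adjusted p = 4.02e-04), a 1.60-fold higher level, and it was found in 4 of 4 batches. In the libraries labelled double mutant it was 0.50 (SE 0.11, adjusted p = 0.00427), also in 4 of 4 batches, which passed the p-value but not the fold change threshold. Both batch counts follow from the lack of overlap. The call in the triple mutants was lost after quantile normalization, where the change was 0.43. Without replicate 4 of the triple mutants it was 0.62 (adjusted p = 8.08e-04) and still called.

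elt-2 (WBGene00001250, chromosome X, 10481240 to 10483441), the principal regulator of intestinal genes from the embryo to the adult, was called in no comparison. It was at 11.78, 12.08, 11.88 and 11.45 in replicates 1 to 4 of the triple mutants, at 11.52, 11.70, 11.44 and 11.54 in the libraries labelled double mutant, and at 11.25, 11.49, 11.70 and 11.14 in daf-2. The 3 groups overlapped. Against daf-2 the log2 fold change was 0.40 in the triple mutants (95% confidence interval 0.06 to 0.73, adjusted p = 0.066) and 0.15 in the libraries labelled double mutant (-0.18 to 0.49, adjusted p = 0.505). After centring by library medians the first became 0.94 and was called, and without replicate 4 of the triple mutants it was 0.52 (adjusted p = 0.0142), under the fold change threshold. elt-4, a short gene 5280 bp before elt-2 on chromosome X and a further GATA factor gene, had lower values in both mutant groups, with means of 7.11, 7.16 and 7.89 in the triple mutants, the libraries labelled double mutant and daf-2. Its changes against daf-2, -0.78 and -0.73, were called in both (adjusted p = 0.00355 and 0.00652), opposite in sign to elt-7.

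On the epidermal side elt-1 (WBGene00001249, chromosome IV, 9614995 to 9620280), which specifies epidermal fate, had higher values in both mutant groups. Its values in replicates 1 to 4 were 13.91, 13.83, 13.65 and 13.72 in the triple mutants, 13.66, 13.72, 13.60 and 13.63 in the libraries labelled double mutant, and 12.92, 13.05, 13.30 and 13.08 in daf-2. All 8 mutant libraries lay above the highest daf-2 library. The increase over daf-2 was 0.69 in the triple mutants (SE 0.10, adjusted p = 2.11e-04) and was called, and it was 0.56 in the libraries labelled double mutant (SE 0.10, adjusted p = 0.00122), just under the fold change threshold of 0.585. Without replicate 3 of daf-2 the change in the libraries labelled double mutant was 0.63 (adjusted p = 9.48e-04) and was called. Of all genes, 29.8% did not overlap between the triple mutants and daf-2 and 35.3% did not overlap between the libraries labelled double mutant and daf-2. Those wholly higher made up 13.5% and 16.7% of all genes. Among the 10 GATA factors 2 were wholly higher (elt-1 and elt-7) in the first comparison and 6 (med-1, med-2, end-1, elt-1, egl-18 and elt-7) in the second, and none was wholly lower. Between the mutants none of the 10 was free of overlap, against 4.32% of all genes. After quantile normalization the change of elt-1 in the triple mutants was 0.41, not called, and without replicate 4 of the triple mutants it was 0.71 (adjusted p = 2.84e-04) and called.

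elt-3, egl-18 and elt-6 were called in no comparison between genotypes in the main fit. elt-3 (WBGene00001251, chromosome X, 13934874 to 13941216), a factor of the embryonic epidermis, was at 11.73, 11.80, 11.74 and 10.89 in replicates 1 to 4 of the triple mutants, at 11.24, 11.30, 11.45 and 11.51 in the libraries labelled double mutant, and at 11.40, 11.60, 11.79 and 11.16 in daf-2. Its changes against daf-2 were 0.06 (95% confidence interval -0.36 to 0.47) in the triple mutants and -0.11 (-0.53 to 0.31) in the libraries labelled double mutant. The seam cell factors egl-18 (WBGene00001186, chromosome IV, 1902322 to 1917840) and elt-6 (WBGene00001253, 1917977 to 1921643) follow each other on the same strand with 136 bp between them. Libraries ran between 11.92 and 12.51 for egl-18 in the triple mutants, between 12.12 and 12.53 in the libraries labelled double mutant and between 11.91 and 12.09 in daf-2. For elt-6 they ran between 10.37 and 11.16, between 10.33 and 10.75 and between 10.64 and 11.13 in the same order, so the groups overlapped. egl-18 differed from daf-2 by 0.36 in the triple mutants (0.05 to 0.67, adjusted p = 0.0751) and by 0.29 in the libraries labelled double mutant (-0.02 to 0.60, adjusted p = 0.148). elt-6 differed by -0.10 (-0.47 to 0.27, adjusted p = 0.716) and -0.34 (-0.72 to 0.03, adjusted p = 0.16) in the same comparisons. The point estimates of these neighbours thus had opposite signs, and after centring of the libraries by their medians both were positive, with elt-6 at 0.44 and 0.085. After centring egl-18 was at 0.90 in the triple mutants and 0.72 in the libraries labelled double mutant, and was called in both. elt-3 was then at 0.594 in the triple mutants and was called. Without replicate 4 of the triple mutants the changes of this genotype were 0.27 for elt-3 (adjusted p = 0.179), 0.32 for egl-18 (adjusted p = 0.133) and 0.041 for elt-6 (adjusted p = 0.879), the last with its sign turned. Short noncoding RNA genes lie within the introns of egl-18, elt-3 and elt-1 and share no exon sequence with them.

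**Figure D2:**
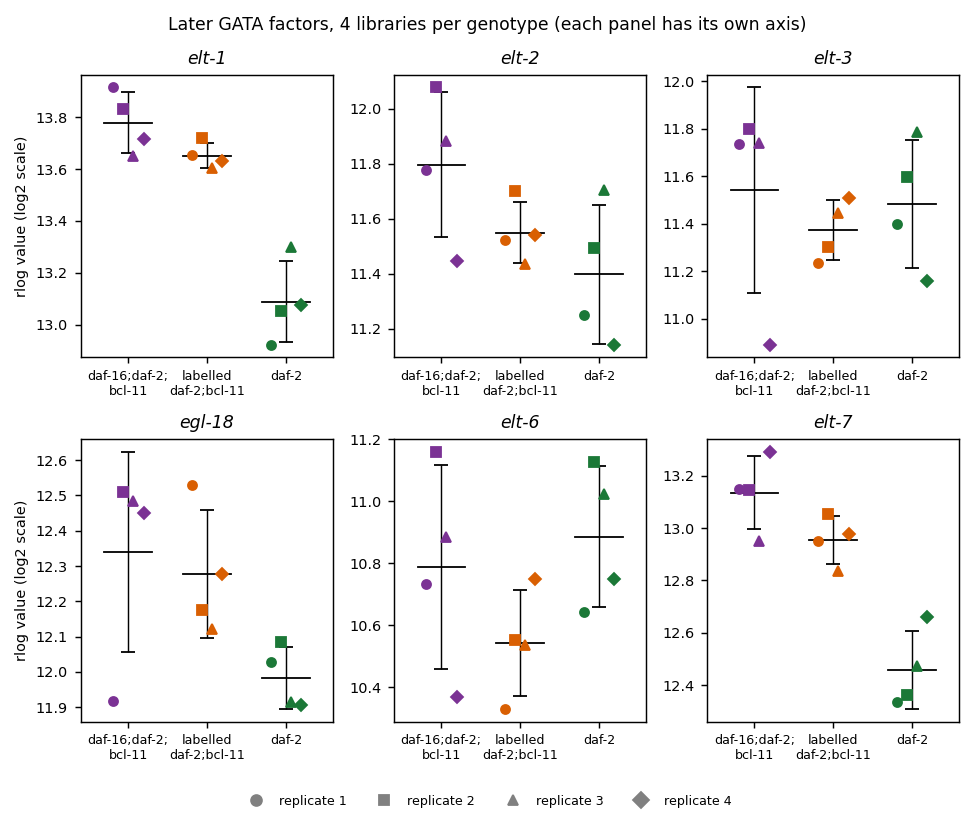
rlog values (log2 scale) of the 6 later GATA factors in each library, with groups from left to right triple mutants (daf-16;daf-2;bcl-11), libraries labelled double mutant (daf-2;bcl-11) and daf-2, symbols for replicates, and black lines for the mean and SD (n = 4). elt-1 and elt-7 lie above all daf-2 libraries in both mutant groups, and elt-2, elt-3 and elt-6 are lowest in replicate 4 within the triple mutants.

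**Figure D3:**
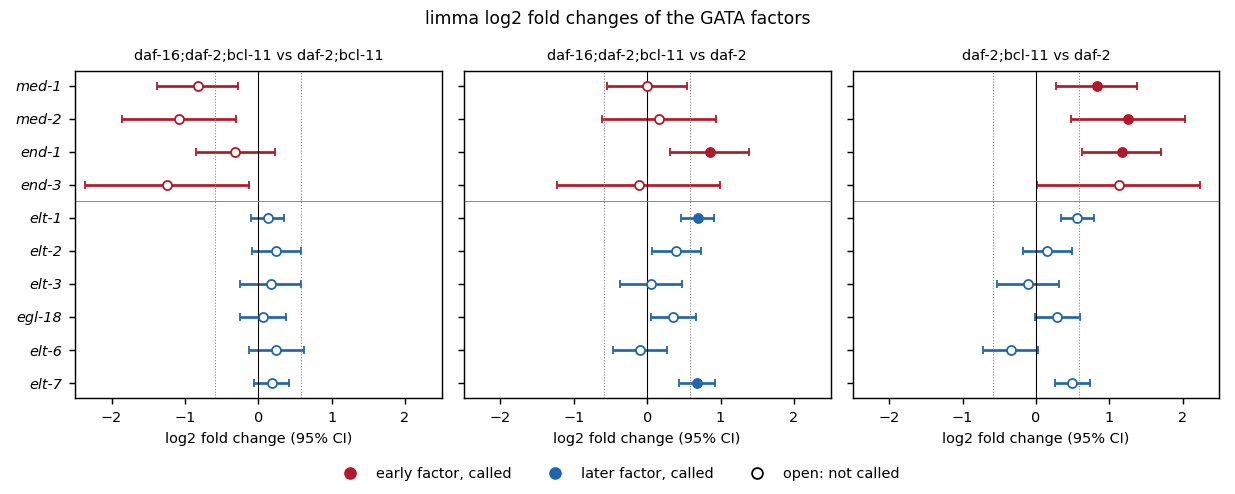
log2 fold changes of the 10 GATA factors with 95% confidence intervals from limma, with a panel for each comparison, early factors in red above later ones in blue, filled circles for called genes and dotted lines at the fold change threshold of 0.585. In daf-2;bcl-11 vs daf-2 all 4 early factors lie between 0.83 and 1.25, and the later ones between -0.34 and 0.56.

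Set against each other, the early factors had a median change of 1.15 and the later factors one of 0.22 in the libraries labelled double mutant against daf-2, with a median of -0.02 over all genes tested. In the triple mutants against daf-2 the medians were 0.08 for the early and 0.38 for the later factors, with -0.01 over all genes. Between the triple mutants and the libraries labelled double mutant all 4 early factors were negative, with a median of -0.96, and all 6 later ones positive, with a median of 0.17, none of them called. The mean value of the early factors minus that of the later ones was -5.54, -5.63, -5.86 and -3.90 in replicates 1 to 4 of the triple mutants, -3.92, -4.17, -4.28 and -4.40 in the libraries labelled double mutant, and -4.71, -5.65, -5.61 and -4.47 in daf-2. On this measure the libraries labelled double mutant lay together above all daf-2 libraries, and replicate 4 of the triple mutants lay just above them, while its other 3 replicates lay with the lower daf-2 pair. The difference between the libraries labelled double mutant and daf-2 was 0.92. For the triple mutants against daf-2 it was -0.12, which became -0.57 without replicate 4 and turned to 0.33 after quantile normalization, so it has no settled sign. Leaving egl-18 out of the later factors (also chosen after the values were seen) gave 0.94 and -0.12.

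Within the triple mutants and within daf-2, the libraries that were high in most early factors were low in elt-2, elt-3 and elt-6. Replicate 4 of the triple mutants was the highest of its group for all 4 early factors and for elt-7, and the lowest for elt-2, elt-3 and elt-6. In daf-2 replicates 1 and 4 were above replicates 2 and 3 for end-1, end-3 and med-2, and below them for elt-2, elt-3 and elt-6. In the libraries labelled double mutant the standard deviations of the early factors were between 0.14 and 0.33, against 0.59 to 1.12 in the triple mutants and 0.22 to 1.06 in daf-2. med-1 nonetheless varied more in the libraries labelled double mutant (0.28) than in daf-2 (0.22). For the later factors standard deviations were 0.05 to 0.18 in the libraries labelled double mutant, against 0.12 to 0.43 in the triple mutants and 0.09 to 0.27 in daf-2. Here egl-18 varied more in the libraries labelled double mutant (0.18) than in daf-2 (0.09).

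Lists of genes that mark the age of the embryo were high, like the early factors, in the libraries labelled double mutant and in replicate 4 of the triple mutants. The likeness was not complete, and the part of these lists in the results was not tested. Over 16 maternal genes, whose RNA is loaded into the egg and then degraded (pos-1, mex-5, mex-1 and others), library means ran between 11.19 and 12.90 in the triple mutants, with replicate 4 at the top, between 12.17 and 12.83 in the libraries labelled double mutant, and between 10.48 and 11.99 in daf-2, again with replicate 4 at the top. Replicate 1 of daf-2 was at 10.58 for these genes, near the low end, while its early factors, at 7.06, were near the high end (6.30 to 7.31). All 16 were called higher in the libraries labelled double mutant than in daf-2, with a median change of 1.53 (pos-1 by 2.03, mex-5 by 1.88 and mex-1 by 1.84), and 2 of 16 in the triple mutants. In the triple mutants all 16 changes against daf-2 were positive, with a median of 0.82, whereas the early GATA factors had a median of 0.08. Both medians include replicate 4. Over replicates 1 to 3 of the triple mutants the maternal mean was 11.35, against 10.94 in daf-2. That of the early factors was 6.62, against 6.77 in daf-2. Over 15 early zygotic genes, which embryos switch on when their own transcription starts (pes-10, tbx-38, hlh-27 and others), means ran between 8.19 and 10.46, again highest in replicate 4, in the triple mutants, between 9.79 and 10.22 in the libraries labelled double mutant, and between 7.98 and 9.18 in daf-2. Of these 15, 11 were called higher in the libraries labelled double mutant than in daf-2, with a median change of 1.31 (pes-10 by 2.13, tbx-38 by 2.04 and hlh-27 by 1.73), and 2 were called higher and 1 lower in the triple mutants. In the triple mutants 14 of the 15 changes against daf-2 were positive, with a list median of 0.51. These changes rest on replicate 4: the list mean was 8.67 over replicates 1 to 3 of the triple mutants, 10.46 in replicate 4 and 8.67 over the daf-2 libraries. Markers of adult tissue were measured as well, and their part in these results was not tested. The mean of 6 yolk genes was at most 5.87 in the triple mutants, 5.39 in the libraries labelled double mutant and 6.19 in daf-2, and that of 8 sperm genes at most 4.50, 4.61 and 4.51 in the same order. The highest yolk mean of the triple mutants lay within the range of their library medians, and single genes were higher, such as msp-78 at 7.38 in the triple mutants and 6.81 in daf-2, and vit-1 at 6.46 and 6.88.

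**Figure D4:**
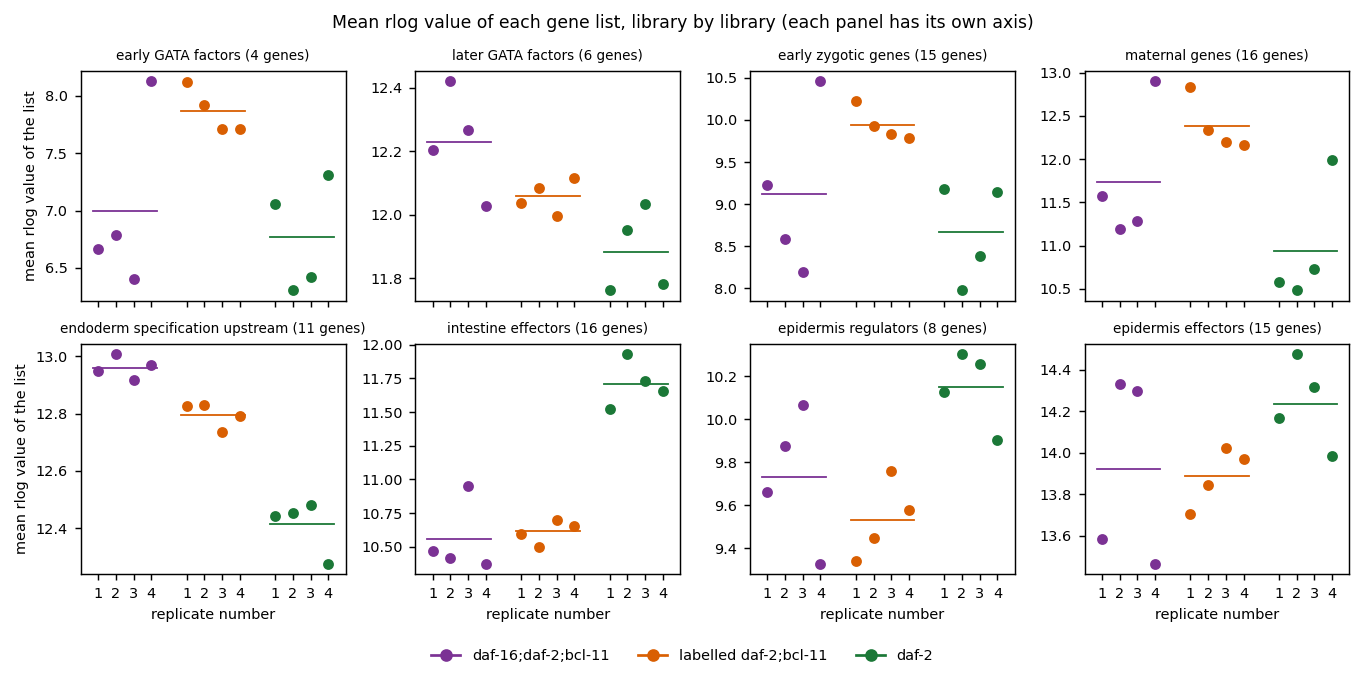
Mean rlog value of each gene list in each of the 12 libraries, with replicate number on the horizontal axis, the 3 genotypes in colour and a line at each group mean. The early GATA factors, the early zygotic genes and the maternal genes share their highest triple mutant library, replicate 4, at 8.13, 10.46 and 12.90, whereas the intestine effectors are higher in every daf-2 library (11.52 and above) than in any mutant library (10.95 and below).

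The genes that act above the endoderm factors were examined as a list of 11 (skn-1, the Wnt and MAP kinase pathway genes mom-1, mom-2, mom-4, mom-5, lit-1, wrm-1, apr-1, sys-1 and pop-1, and pal-1). All 11 had positive changes in both mutant groups against daf-2. Called higher were 5 in the triple mutants (mom-5, pop-1, sys-1, mom-1 and mom-2, by 0.71, 0.71, 0.68, 0.66 and 0.60) and 2 in the libraries labelled double mutant (mom-2 by 0.85 and pop-1 by 0.59), with none lower. Over all genes 6.38% and 7% were called higher in these comparisons. mom-2 encodes the Wnt ligand that induces endoderm, and pop-1 the TCF factor through which the signal acts. skn-1, the maternal activator of the med genes, changed by 0.52 in the triple mutants (SE 0.14, adjusted p = 0.0133) and by 0.25 in the libraries labelled double mutant (SE 0.14, adjusted p = 0.224), and was called in neither. The list median was 0.58 and 0.37 in these comparisons. Unlike that of the early GATA factors, the list mean was as high in replicate 4 of the triple mutants (12.97) as over its other replicates (12.96). Single members differed in this. In replicates 1 to 4 of the triple mutants mom-2 was at 13.32, 13.14, 13.09 and 13.97, highest in replicate 4. pop-1 was at 11.36, 11.38, 11.09 and 10.65, lowest in replicate 4.

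Below the later factors, lists of intestine effectors and of epidermis regulators and effectors were examined. Of 16 intestine effectors, among them genes known to depend on ELT-2, 12 were called lower and none higher in each mutant group against daf-2, where 16.2% (triple mutants) and 15% (libraries labelled double mutant) of all genes were called lower, with median changes of -1.01 in the triple mutants and -0.93 in the libraries labelled double mutant, while elt-2 was not called and elt-7 had positive changes. Among them were mtl-1, which encodes a metallothionein (-4.03 in the triple mutants and -3.98 in the libraries labelled double mutant), ftn-1, which encodes a ferritin (-2.18 and -1.98), and ifc-2, which encodes an intermediate filament protein of the intestine (-1.62 and -1.48). mtl-1 and ftn-1 are known from other work as DAF-16 targets, daf-16 transcript was low in both mutant groups, and its part in their decrease was not tested. The gut esterase gene ges-1, a classical ELT-2 target, was called in neither (-0.02 and -0.20). Of 8 epidermis regulators, 2 were called higher and 3 lower in the triple mutants and none higher and 5 lower in the libraries labelled double mutant. nhr-73, grh-1 and bro-1 fell by 1.71, 1.19 and 0.73 in the triple mutants, and by 1.96, 1.00 and 0.93 in the libraries labelled double mutant. The 2 called higher in the triple mutants were ceh-16 and nhr-25, by 0.77 and 0.59. In the libraries labelled double mutant these 2 changed by 0.46 and 0.36 and were not called. Median changes of the regulators were -0.51 in the triple mutants and -0.81 in the libraries labelled double mutant. Those of 15 epidermis effectors were -0.29 and -0.40. Of these 15 effectors, 1 was called higher and 5 lower in each mutant group. The higher one was the collagen gene dpy-8 (1.22 in the triple mutants and 1.72 in the libraries labelled double mutant), and wrt-2, a hedgehog-related gene of the seam, was at -2.21 and -1.63. Genes of other late tissues were lower as well: 6 of 8 body muscle and 4 of 5 pharynx markers were called lower in each mutant group, and of 7 neuron markers 6 in the triple mutants and 5 in the libraries labelled double mutant, with 1 higher in each. These late tissue lists moved with the intestine list, and their part in its decrease was not tested.

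Levels of different genes can only be set side by side per length. With log2 of the exonic length in kb subtracted from the rlog value, elt-7 was the most abundant of the 10 in each genotype, at 13.38 ± 0.14 in the triple mutants, 13.20 ± 0.09 in the libraries labelled double mutant and 12.71 ± 0.15 in daf-2 (SD, n = 4 each), clear of the next gene in every library. elt-1 followed, at 12.63, 12.51 and 11.94 in the same order, and then end-1, at 12.14, 12.45 and 11.28. In daf-2 all elt-1 libraries lay above all end-1 libraries on this scale, whereas in both mutant groups these neighbours overlapped. egl-18, elt-2, elt-3 and elt-6 came next, with overlapping libraries between elt-2 and elt-3 in each genotype. end-3 was far below end-1, at 7.37 ± 1.12, 8.62 ± 0.19 and 7.49 ± 1.06, and med-2 and med-1, whose libraries overlapped in each genotype, were lowest, between 5.36 and 6.69.

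**Figure D5:**
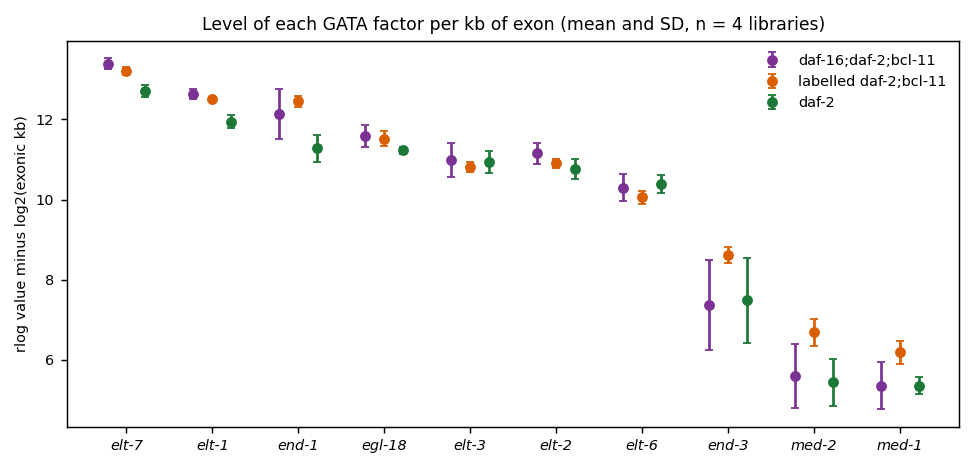
Level of each GATA factor per kb of exon (rlog value minus log2 of exonic length in kb, mean and SD of 4 libraries), ordered by the level in daf-2, with points from left to right for the triple mutants, the libraries labelled double mutant and daf-2. elt-7 is at the top in each genotype (13.38, 13.20 and 12.71) and the med genes at the bottom, between 5.36 and 6.69.

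For each called GATA factor the genes with the most similar profile over the 12 libraries were found by the root mean square difference after subtracting each gene's mean. For end-1, whose own values varied by 0.61 about their mean, these were bath-41 and mcm-6, with differences of 0.11 each. For med-2 (own variation 0.76) they were mbtr-1 (0.13) and his-61 (0.15), and for med-1 (0.52) csr-1 and C48B4.8 (0.19 each). For elt-1 (0.32) they were rpoa-49 (0.05) and orc-1 (0.06), and for elt-7 (0.31) fbxb-25 (0.08) and orc-1 (0.09). orc-1, a subunit of the replication origin recognition complex, was among the nearest to both later factors. Likeness of profile over 12 libraries is a description of these libraries only.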

How the data were processed

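Eggs of 3 C. elegans genotypes (4 libraries each) were profiled: daf-16;daf-2;bcl-11 (the triple mutants), daf-2;bcl-11 (the libraries labelled double mutant) and daf-2. Libraries were made by the authors from 5 ng of RNA with Smart-seq2, which does not keep strand. Reads were demultiplexed with bcl2fastq 2.20 and quantified against WBcel235 (Ensembl) with Kallisto (version written 048.0), and the authors deposited log2-scale rlog values of normalized counts, 1 per gene and library. How transcripts were summed and filtered is not given in the sources used here. All 12 columns were matched to samples by name, and no column was left over.

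Differences between genotypes were fitted with limma 3.58.1 under R 4.3.3 (1 model over 12 libraries, trend on mean expression, no block, no filter, Benjamini-Hochberg adjustment over 25122 genes), with calls at an adjusted p below 0.05 and an absolute log2 fold change above 0.585. For each factor and comparison a two-sided exact permutation test was run (70 arrangements, 30 tests, p-values not adjusted). The scripts were tested on simulated data. All 25122 identifiers were in a later Ensembl annotation of WBcel235, which gave coordinates and exonic lengths, and 23471 had a symbol. All 10 GATA factors passed the alternative filter on low values. No 2 libraries held identical values. Whether replicates differ by more than sampling noise cannot be tested without counts.

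Libraries with the same replicate number were taken as a batch. Their deviations from the group means correlated by 0.04 to 0.38 between the triple mutants and daf-2, by -0.10 to 0.18 between the libraries labelled double mutant and daf-2, and by -0.30 to 0.12 between the mutants. Members and lists were chosen with earlier results of these data known. Named genes are the 10 factors, elt-4, the 11 upstream genes, the targeted genes, at most 3 called genes of largest change per list, and the 2 nearest profiles of each called factor. ges-1, ceh-16, nhr-25, msp-78 and vit-1 were named outside this rule, after their values were seen.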

Additional observations from a re-analysis of the deposited data

Results flagged for a closer look

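In 3 of the 30 groups checked (10 genes in 3 genotypes) 1 value stood far outside the rest of its genotype, where chance gives about 1.5 such groups. All 3 were in the triple mutants. med-2 was at 5.85 in replicate 4, and the other replicates averaged 4.28. The gap to the nearest of them was 0.903 of the range. elt-3 was at 10.89 in replicate 4, against 11.76 over the other replicates, with a gap of 0.929 of the range. egl-18 was at 11.92 in replicate 1, against 12.48 over the other replicates, with a gap of 0.901 of the range. Replicate 4 also had the highest means of its genotype for the maternal and early zygotic gene lists, whose part in these values was not tested.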

How the results depend on the processing

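Of 606 recomputed changes of single factors, 550 kept sign and call, 17 lost a call, 14 gained one and 25 changed sign, none of these 25 in a called gene. The cause of the changes was not tested. Centring of the libraries by their medians, which adds 0.54 to changes of the triple mutants against daf-2 and 0.43 to those of the libraries labelled double mutant against daf-2, called 11465 and 8574 genes and 6 and 7 of the 10 factors (5661 and 5517 genes and 3 factors each in the report). The share of lower calls became 17.7% and 21.7%, against 71.7% and 68.1%, and after quantile normalization 53.7% and 54.1%. Centring turned med-1, end-3 and elt-6 to 0.54, 0.42 and 0.44 in the triple mutants against daf-2, and elt-3 and elt-6 to 0.32 and 0.085 in the libraries labelled double mutant. Quantile normalization called 1 factor in the triple mutants against daf-2 and turned med-1, end-3 and elt-3 to 0.34, 0.40 and -0.059, and the early minus later difference to 0.33. A fold change threshold of 1 on the log2 scale called 2629 genes and 0 factors in the triple mutants against daf-2. In the libraries labelled double mutant against daf-2 it called 2511 genes, and med-1 lost its call. With no fold change threshold 5 factors were called in that comparison. Summing the med genes gave 0.071 for the triple mutants against daf-2.

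With single libraries left out, 1 to 4 factors were called in the libraries labelled double mutant against daf-2 (1 without replicate 2 of daf-2, 4 without replicate 4 of the triple mutants), 2 to 3 in the triple mutants against daf-2, and 0 to 2 between the mutants, where 2 to 357 genes were called. In the triple mutants against daf-2 the ranges were -0.28 to 0.17 for med-1, -0.23 to 0.42 for med-2, -0.65 to 0.24 for end-3, -0.054 to 0.27 for elt-3, -0.22 to 0.041 for elt-6 and -0.57 to 0.090 for the early minus later difference. The replicate block, with the batch number as a term, called 3, 3 and 0 factors and 5717, 5769 and 3 genes in the libraries labelled double mutant against daf-2, the triple mutants against daf-2 and between the mutants, and changed no call of a factor. Depth is unknown, and the scarce med genes, whose rlog values are pulled most towards their means, are the least precise.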
